A study of Mus musculus with 6 samples.

Results

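The 50 genes described here drive or carry out the cell division cycle: 12 act in G1 and at entry into S phase (G1/S), 15 in DNA replication and 23 in mitosis. They were chosen by name, and each of the 50 was found among the 24343 genes of the expression tables. RNA was sequenced from splenic natural killer (NK) cells of female C57BL/6 mice given either an IL-15 cytokine complex (IL-15C) or an IL-2 cytokine complex (IL-2C), with 3 libraries per group. The sort kept cells bearing NK1.1 and NKp46 and dropped cells positive for CD3 or for the CD1d tetramer. In a cytokine complex the cytokine is bound to a carrier that prolongs its action; the carrier, dose, time and age of the mice are absent from the labels, both groups were treated, and untreated cells were not analysed here. Whether each library is a different mouse is not stated, so the p-values below cover the variation among these 6 samples and that variation may be technical.

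A cell leaves G1 when cyclin D with CDK4 or CDK6, and then cyclin E with CDK2, inactivate the retinoblastoma protein and free the E2F transcription factors, while CDK inhibitors hold that step back. E2F factors switch on the genes of origin licensing, DNA synthesis and nucleotide supply. The genes of mitosis, many of which have promoter elements called CHR and CCAAT boxes, are held silent in resting and G1 cells by the DREAM complex. They are switched on later by its MuvB core joined with B-MYB and FOXM1, while NF-Y binds the CCAAT boxes. NK cells in a resting spleen divide little, and IL-2 and IL-15, which signal through the same beta and gamma receptor chains, are both known to make them proliferate.

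The libraries held 23543141 to 27229145 fragments, as implied by the deposited intervals, and values are FPKM, which scales fragments by transcript length and by library size. Defining NK genes were abundant in each library: Ncr1, which encodes NKp46, lay between 755 and 832 FPKM, and the summed level of 8 NK markers ran from 10361 to 10963 FPKM in the IL-15C libraries and from 9734 to 11153 in those of IL-2C. Markers of other cells were present at lower levels, and 0 of them was listed at 0 in all 6 libraries. One called marker differed between the groups. Itgax, which encodes CD11c of dendritic cells and is also made by NK cells, had 235, 249 and 260 FPKM in IL-15C and a lower 209, 197 and 204 FPKM in IL-2C (log2 change 0.29 ± 0.05; limma adjusted p = 0.0209). It made up nearly all of the sum of 6 dendritic cell markers, which was 237 to 261 FPKM after IL-15C and 199 to 211 after IL-2C, while Flt3, Xcr1, Clec9a and Siglech did not exceed 0.0765 FPKM in any library. IL-15C replicate 1 stood apart. The 9 erythroid markers summed to 22.4 FPKM there against 1.41 to 3.93 in the other 5 libraries, and 7 neutrophil markers summed to 108 against 39.3 to 58.5. The 7 T and NKT cell markers summed to 74.8 FPKM there against 54.0 to 61.3 in the other 5 libraries. The 8 B cell markers summed to between 5.05 and 16.7 FPKM after IL-15C and between 9.50 and 23.9 after IL-2C. All 8 were highest in IL-2C replicate 2. The part that these cells have in the results was not tested, and for members whose direction or call turned without IL-15C replicate 1 the values without it are given.

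The promoters of the classes differed in the elements they hold. The sequences below are of members that hold such elements, taken by the size of the difference between the treatments. Of the members, 41 matched the RefSeq promoter table (GRCm38.p6; 250 bases before to 50 after the start site), with 46 promoters. These were 14 promoters of 10 G1/S genes, 14 of 13 replication genes and 18 of 18 mitosis genes. The motifs searched on both strands were E2F (TTTCCCGC, TTTCGCGC, TTTGCCGC or TTTGGCGC), CHR (TTTGAA or TTCGAA), the CCAAT box (CCAAT) and the GC box (GGGCGG); an E2F match can share bases with a GC or CCAAT box. An E2F match was present in 42.9% of the replication promoters, 14.3% of those of G1/S and 5.56% of those of mitosis, against 2.26% of 32851 promoters in the table. A CHR match was present in 77.8% of mitosis promoters, 14.3% of replication and 7.14% of G1/S promoters, against 19.2% in the table. CCAAT boxes were found in 88.9% of mitosis, 64.3% of replication and 42.9% of G1/S promoters, against 37.4%. GC boxes differed less between the classes, at 83.3% of mitosis, 71.4% of replication and 71.4% of G1/S promoters, against 35.7%. A match is a description of the letters and not of a bound factor.

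**Figure D1:**
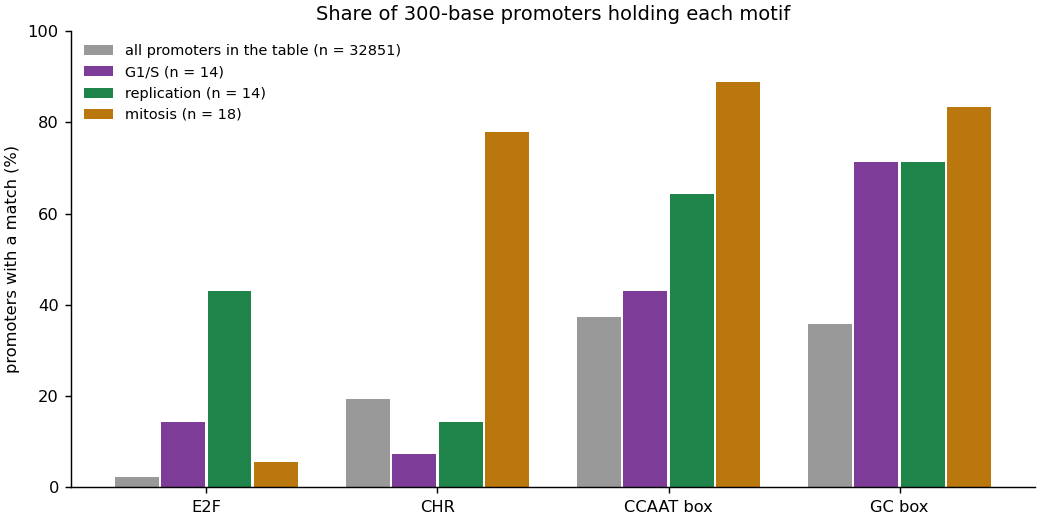
Share of promoters (vertical axis, percent) that hold at least 1 match to each motif (horizontal axis), for the 32851 promoters of the RefSeq table (grey) and those of the G1/S (purple), replication (green) and mitosis (orange) genes. E2F matches were most frequent among replication promoters at 42.9%, and CHR matches among mitosis promoters at 77.8%.

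The promoters shown are, in each class, those of the 2 members with the largest log2 change that hold a match, among the 31 members tested (mean of at least 1 FPKM). They lie at chr7:38107441-38107740 on the minus strand (Ccne1), chr6:134920151-134920450 on the plus strand (Cdkn1b), chr11:117825965-117826264 on the minus strand (Tk1), chr5:138171834-138172133 on the minus strand (Mcm7), chr11:99024140-99024439 on the minus strand (Top2a) and chr7:135716330-135716629 on the minus strand (Mki67). Cdk6 had the largest log2 change of these 31 members (0.42) and is not shown, since its promoter holds 0 matches to the motifs searched. Capitals mark motif matches on either strand.
Ccne1: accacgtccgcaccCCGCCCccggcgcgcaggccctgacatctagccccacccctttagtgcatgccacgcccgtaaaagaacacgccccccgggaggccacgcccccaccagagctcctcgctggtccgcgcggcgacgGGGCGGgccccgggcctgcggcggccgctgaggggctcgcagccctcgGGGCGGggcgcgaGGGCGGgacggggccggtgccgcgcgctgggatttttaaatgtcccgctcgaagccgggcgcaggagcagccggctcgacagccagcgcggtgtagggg
Cdkn1b: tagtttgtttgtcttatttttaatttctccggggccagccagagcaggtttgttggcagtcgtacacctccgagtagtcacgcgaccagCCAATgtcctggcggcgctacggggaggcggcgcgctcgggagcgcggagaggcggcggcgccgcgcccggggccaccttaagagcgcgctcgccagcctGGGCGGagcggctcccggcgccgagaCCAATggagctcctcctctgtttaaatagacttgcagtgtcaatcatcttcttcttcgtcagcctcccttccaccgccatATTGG
Tk1: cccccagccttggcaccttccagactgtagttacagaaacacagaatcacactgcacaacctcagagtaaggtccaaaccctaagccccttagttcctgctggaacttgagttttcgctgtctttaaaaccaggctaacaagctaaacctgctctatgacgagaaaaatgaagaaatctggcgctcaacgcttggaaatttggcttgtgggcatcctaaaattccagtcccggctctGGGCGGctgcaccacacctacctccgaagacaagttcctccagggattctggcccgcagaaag
Mcm7: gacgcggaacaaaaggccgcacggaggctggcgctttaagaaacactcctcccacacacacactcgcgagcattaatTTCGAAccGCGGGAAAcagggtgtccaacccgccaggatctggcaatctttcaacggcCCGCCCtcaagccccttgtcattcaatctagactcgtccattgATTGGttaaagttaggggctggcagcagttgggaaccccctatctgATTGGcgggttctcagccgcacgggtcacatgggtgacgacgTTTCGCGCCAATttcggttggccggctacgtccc
Top2a: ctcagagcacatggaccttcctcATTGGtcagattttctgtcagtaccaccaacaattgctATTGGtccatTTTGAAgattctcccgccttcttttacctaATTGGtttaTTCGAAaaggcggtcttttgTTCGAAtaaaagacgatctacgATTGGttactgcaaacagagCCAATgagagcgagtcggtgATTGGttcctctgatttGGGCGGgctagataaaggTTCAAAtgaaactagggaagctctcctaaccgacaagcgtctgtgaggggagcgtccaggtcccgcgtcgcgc
Mki67: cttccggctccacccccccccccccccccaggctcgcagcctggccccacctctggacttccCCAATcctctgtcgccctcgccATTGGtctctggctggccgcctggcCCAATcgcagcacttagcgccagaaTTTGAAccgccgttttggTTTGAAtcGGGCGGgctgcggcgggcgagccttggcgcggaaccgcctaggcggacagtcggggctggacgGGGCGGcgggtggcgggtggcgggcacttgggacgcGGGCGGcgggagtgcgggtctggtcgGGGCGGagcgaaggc
Top2a holds 4 CHR and 6 CCAAT matches and Mki67 holds 2 and 3, with 0 E2F matches in either. The Mcm7 promoter shown holds 2 E2F matches, 1 CHR match and 3 CCAAT boxes, one of which shares bases with an E2F match. A second Mcm7 promoter in the table, at chr5:138171217-138171516, holds 0 E2F and 0 CHR matches, 1 CCAAT box and 2 GC boxes. Ccne1 and Tk1 hold GC boxes alone among the motifs searched, 4 and 1.

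Mitosis genes were the least abundant class. The median of the members' mean levels was 8.15 FPKM for G1/S and 8.81 FPKM for replication but 0.860 FPKM for mitosis. Of the 23 mitosis genes 15 averaged below 1 FPKM, among them the mitotic kinase genes Cdk1, Plk1, Aurka and Aurkb, against 2 of 12 G1/S and 2 of 15 replication genes. The most abundant members were Ccnd3, a D-type cyclin, at a mean of 153 FPKM, and Hmgb2, a DNA-bending chromatin protein that is also made outside mitosis, at 95.3 FPKM. In bulk RNA, fewer cells in a phase and less RNA per cell cannot be told apart.

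**Figure D2:**
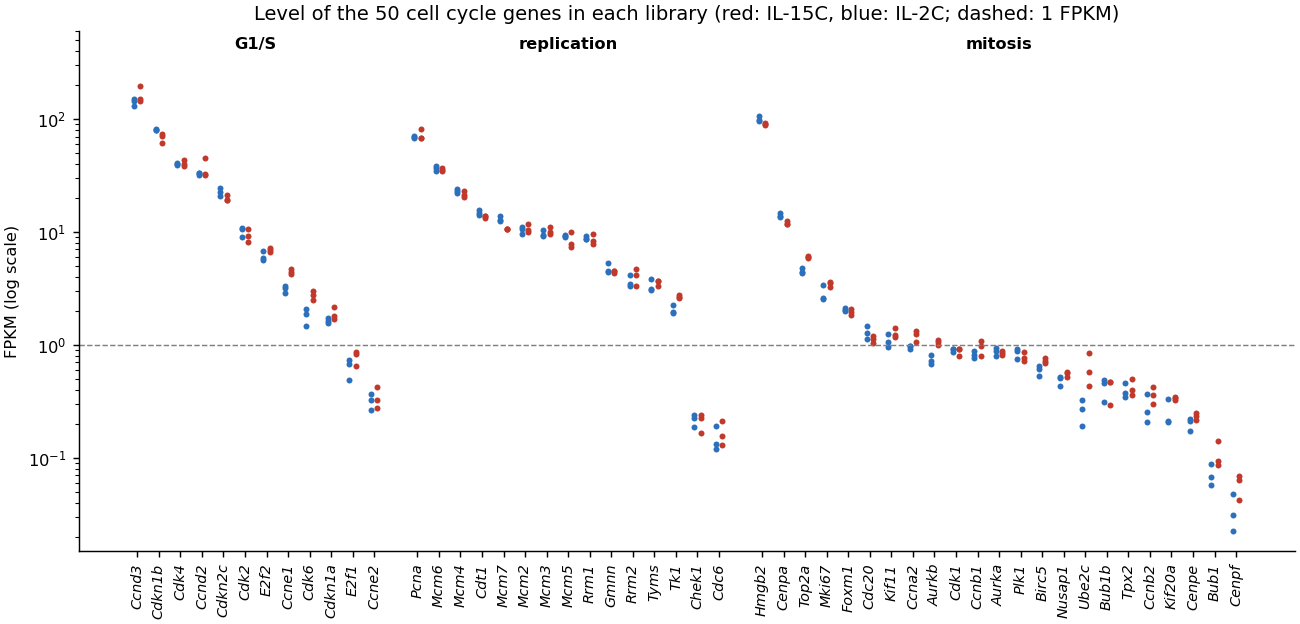
FPKM (vertical axis, log scale) of the 50 members in each library, ordered by mean level within G1/S, replication and mitosis; red points are IL-15C and blue points IL-2C libraries, and the dashed line marks 1 FPKM. Most mitosis genes lie below the line, and most replication genes between 1 and 100.

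The comparison asks whether the cycle genes of NK cells differ between the treatments. Of the 31 members with a mean of at least 1 FPKM, 4 rose and 2 fell in IL-15C relative to IL-2C at a limma adjusted p under 0.05 over 9831 genes, and 25 did not pass. Over all tested genes 6.44% were called, 1.72% higher and 4.72% lower. The genes that rose were Ccne1 and Cdk6 of G1/S, Tk1 of replication and Top2a of mitosis, and those that fell were Mcm7 of replication and Cenpa of mitosis. The median log2 change was 0.13 for the 10 tested G1/S genes, -0.042 for the 13 replication genes and 0.046 for the 8 mitosis genes, beside -0.040 for all tested genes. These medians were small. That of G1/S moved to 0.013 without IL-15C replicate 1. That of replication was 0.0097 without IL-15C replicate 2 and 0.0024 after median scaling. These 2 shifts were below 0.074, the SD of its library medians within groups. With a mean of at least 5 FPKM only 19 members were tested, and the medians of G1/S and mitosis were 0.020 and -0.15. The latter was the unchanged value of Hmgb2, so it reflects which genes were left. The 3 values of one group lay wholly above those of the other for 10 of the 31 members, 5 in each direction, where this held for 33.3% of tested genes, 8.15% higher and 25.1% lower in IL-15C. The number of calls changed with the library left out, in fits that also held fewer samples. Leaving out IL-2C replicate 1 gave 0 calls among the members, with 27 genes higher and 19 lower over the whole table. Leaving out IL-2C replicate 2 also gave 0, with 14 and 15 genes called. The number was 0 as well in limma without the filter on low genes, when 0.092% of 16313 genes were called. Without IL-15C replicate 1, Ccne1, Cdk6, Tk1 and Top2a were still called higher and Mcm7 lower; Cenpa was not, and Mcm5 was called lower.

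**Figure D3:**
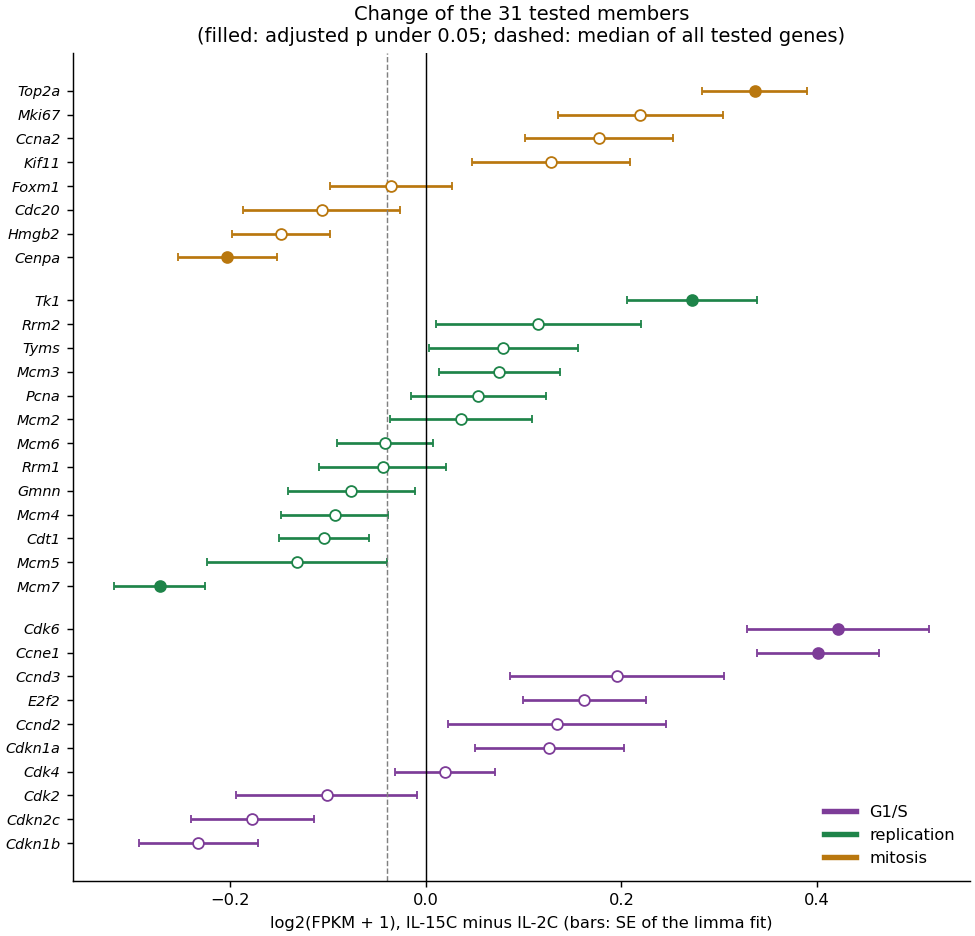
Difference in log2(FPKM + 1) between IL-15C and IL-2C (horizontal axis) with the SE of the limma fit for the 31 members tested, by class. Filled points passed an adjusted p of 0.05, and the dashed line is the median of all tested genes at -0.040. Ccne1, Cdk6, Tk1 and Top2a are the filled points on the right, Mcm7 and Cenpa those on the left.

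Among the G1 cyclins, Ccne1 rose. It encodes cyclin E1, the partner of CDK2 at the start of S phase, and lies on chromosome 7 at 38097984 to 38107490 (mm10). Its level was 4.70, 4.21 and 4.46 FPKM in IL-15C replicates 1 to 3 against 3.31, 3.20 and 2.90 FPKM in IL-2C, so the lowest IL-15C library lay above the highest IL-2C library. The means were 4.46 ± 0.248 FPKM (SD, n = 3) and 3.13 ± 0.215 FPKM, a ratio of 1.42, with a log2 change of 0.40 ± 0.06 (SE; limma adjusted p = 0.0144). The call held in 4 of the 6 fits that each left out 1 library. Ccne2, which encodes the second E-type cyclin, was near the limit of detection at 0.343 ± 0.075 and 0.318 ± 0.0494 FPKM, and its groups overlapped. The D-type cyclins, which couple growth factor signals to the cycle, were far more abundant. Ccnd2 had 45.3, 31.9 and 32.5 FPKM in IL-15C against 33.1, 33.1 and 32.0 in IL-2C. Ccnd3 had 198, 149 and 145 FPKM against 151, 143 and 132. In both genes IL-15C replicate 1 was high and the other 2 IL-15C libraries lay within or close to the IL-2C range. Their log2 changes were 0.13 ± 0.11 for Ccnd2 and 0.20 ± 0.11 for Ccnd3 (limma adjusted p = 0.466 and 0.283), and without IL-15C replicate 1 the ratios of mean FPKM were 0.982 and 1.04. Ccnd3 shares 361 exon bases with Bysl on the opposite strand, which had a log2 change of 0.20 ± 0.11.

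Of the G1/S kinases, Cdk6 rose while Cdk4, the related kinase that also pairs with D-type cyclins, differed little. Cdk6, on chromosome 5 at 3344312 to 3522225, had 3.01, 2.76 and 2.48 FPKM in IL-15C against 1.46, 1.88 and 2.08 FPKM in IL-2C, without overlap. Its mean was 2.75 ± 0.264 FPKM (SD, n = 3) against 1.81 ± 0.318, a ratio of 1.52, the highest of the members tested, and the log2 change was 0.42 ± 0.09 (limma adjusted p = 0.0353; called in 3 of 6 fits with a library left out). An antisense gene, Gm17590, shares 368 exon bases with Cdk6 in the GENCODE annotation, and whether the counting used strand is not stated. Cdk4 had 43.6, 40.4 and 38.5 FPKM against 40.4, 41.1 and 39.3, with overlapping groups and a log2 change of 0.020 ± 0.051, which was -0.027 without IL-15C replicate 1. Within a library, the Cdk6 level was 6.90, 6.84 and 6.44% of the Cdk4 level in IL-15C against 3.62, 4.57 and 5.31% in IL-2C, a ratio that scaling of the library does not move. Cdk6 was itself wholly higher, so this ratio is no separate evidence that it rose. Cdk2, the partner of the E-type cyclins, had 9.40 ± 1.26 FPKM against 10.1 ± 1.00, with overlapping groups.

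The E2F activators gave overlapping values. E2f2 had 6.68, 6.97 and 7.24 FPKM in IL-15C against 6.76, 5.71 and 5.91 FPKM in IL-2C, with a log2 change of 0.16 ± 0.06 (limma adjusted p = 0.138). E2f1 was below 1 FPKM, with 0.869, 0.648 and 0.830 against 0.732, 0.684 and 0.493 (exact two-sided permutation p = 0.3, where 0.1 is the smallest that 3 against 3 libraries allow).

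Among the CDK inhibitors, Cdkn1b was lower in each IL-15C library without passing the test over all genes. It encodes the inhibitor that keeps cyclin E and CDK2 inactive in resting lymphocytes, and was the most abundant of the inhibitors. It had 62.0, 73.4 and 70.9 FPKM in IL-15C against a narrow 80.3, 81.9 and 80.1 FPKM in IL-2C. The means were 68.8 ± 5.99 and 80.8 ± 0.964 FPKM (SD, n = 3), with a log2 change of -0.23 ± 0.06 and a limma adjusted p of 0.0545. Among the 7556 genes with a mean of at least 5 FPKM the adjusted p was 0.0497, which passed. The limma adjusted p was 0.127 after median scaling, 0.0892 after quantile normalization and 0.0865 after rescaling to a common sum. With a library left out it ran from 0.0613 to 0.159, so none of these fits passed. IL-15C replicate 1 was the lowest, and the ratio of means was 0.851 with it and 0.893 without it. Cdkn2c, an inhibitor of CDK4 and CDK6, had 19.3, 21.3 and 19.1 FPKM against 22.7, 20.8 and 24.4, overlapping in IL-15C replicate 2 and IL-2C replicate 2 (log2 change -0.18 ± 0.06; limma adjusted p = 0.114). Cdkn1a, the inhibitor induced by p53, was low at 2.16, 1.69 and 1.81 FPKM against 1.63, 1.73 and 1.56, with a log2 change of 0.13 ± 0.08, or 0.060 without IL-15C replicate 1. The Ccne1 level within a library was 7.59, 5.74 and 6.29% of the Cdkn1b level in IL-15C against 4.12, 3.90 and 3.61% in IL-2C. Since Ccne1 was wholly higher and Cdkn1b wholly lower, this ratio had to separate and is no further evidence.

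**Figure D4:**
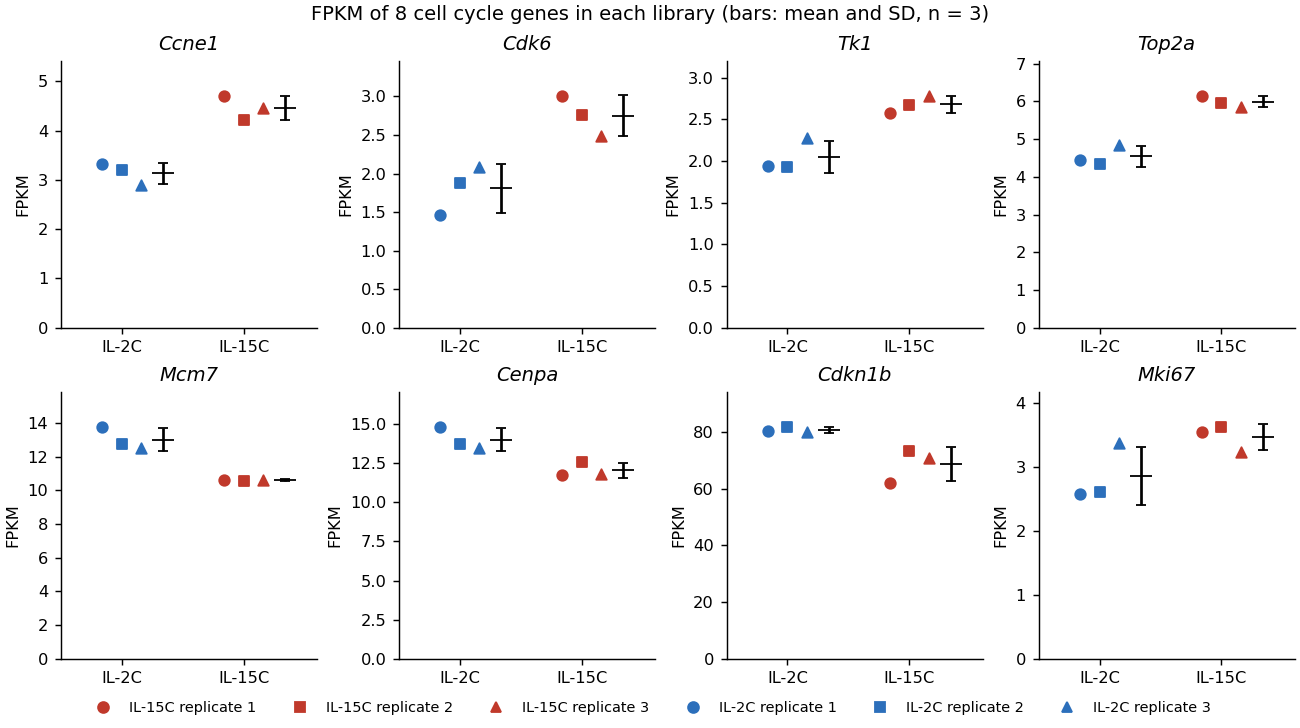
FPKM (vertical axis, from 0) in each library for the 6 members called by limma and for Cdkn1b and Mki67; markers show the replicate, and black bars the mean and SD of 3 libraries. Ccne1, Cdk6, Tk1 and Top2a are higher in each IL-15C library, Mcm7, Cenpa and Cdkn1b are lower, and Mki67 overlaps through IL-2C replicate 3.

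In replication, the helicase gene Mcm7 fell. MCM2 to MCM7 form the ring that unwinds DNA at the fork. Mcm7, on chromosome 5 at 138164589 to 138171862, had 10.6, 10.5 and 10.6 FPKM in IL-15C against 13.8, 12.7 and 12.5 FPKM in IL-2C. The IL-15C libraries were nearly equal and lay below each IL-2C library. Mean levels were 10.6 ± 0.0537 FPKM and 13.0 ± 0.670 (SD, n = 3), and the log2 change was -0.27 ± 0.05 (limma adjusted p = 0.019; called in 3 of 6 fits with a library left out). Mcm7 shares 321 exon bases with Ap4m1 and 64 with Cops6 on the opposite strand, and these had log2 changes of -0.05 ± 0.05 and 0.01 ± 0.05, neither past the test.

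None of the other 5 subunit genes passed in the fit on all libraries. Mcm2 had 11.9, 9.91 and 10.4 FPKM in IL-15C against 10.7, 11.1 and 9.53, and Mcm4 had 23.2, 21.3 and 20.3 against 23.9, 23.2 and 22.3. Mcm6, the most abundant subunit gene, had 36.7, 35.5 and 34.7 FPKM against 38.8, 36.6 and 34.8. Mcm5 had 10.1, 7.31 and 7.84 FPKM against 9.25, 9.03 and 9.40, so that IL-15C replicate 1 lay above the IL-2C libraries and the other 2 IL-15C libraries below them. Without that library its log2 change was -0.25 (limma adjusted p = 0.0219). Mcm3 had 10.3 ± 0.744 FPKM against 9.70 ± 0.614. Within a library, the ratio of Mcm7 to the mean of Mcm2 to Mcm6 was 0.571, 0.626 and 0.642 in IL-15C. It was 0.741, 0.713 and 0.735 in IL-2C. Mcm7 was itself wholly lower, so this ratio is no separate evidence that it fell.

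Of the genes that supply nucleotides for DNA synthesis, Tk1, the S phase thymidine kinase, rose. Tk1, on chromosome 11 at 117815519 to 117826014, had 2.58, 2.67 and 2.78 FPKM in IL-15C against 1.94, 1.93 and 2.27 FPKM in IL-2C, without overlap. The means were 2.68 ± 0.101 and 2.05 ± 0.196 FPKM (SD, n = 3), a ratio of 1.31, from 140 to 163 implied fragments per IL-15C library and 106 to 148 per IL-2C library. The log2 change was 0.27 ± 0.07 (limma adjusted p = 0.0462), and the call held in 2 of 6 fits with a library left out and not after rescaling to a common sum. Afmid, which shares 83 exon bases with Tk1 on the opposite strand, fell by 0.26 on the log2 scale (limma adjusted p = 0.0177). Rrm2, the regulated subunit of ribonucleotide reductase, had 4.70, 4.16 and 3.33 FPKM against 4.20, 3.33 and 3.46. Its log2 change was 0.12 ± 0.10, or 0.025 without IL-15C replicate 1. Its partner Rrm1 had 8.56 ± 0.855 FPKM against 8.83 ± 0.300. Tyms, thymidylate synthase, had 3.57 ± 0.199 FPKM against 3.33 ± 0.426; all 3 of these genes overlapped between groups.

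The sliding clamp gene Pcna, the most abundant replication member, was highest in IL-15C replicate 1. It had 81.6, 68.4 and 67.6 FPKM in IL-15C against 71.4, 69.4 and 67.9 FPKM in IL-2C. The other 2 IL-15C libraries lay below the median of the IL-2C libraries. IL-15C replicate 1 was the highest library for 25 of the 50 members, including 7 of 12 G1/S and 8 of 15 replication genes, against 25.0% of all tested genes. Without it the log2 change of Pcna went from 0.054 to -0.032 and that of Mcm2 from 0.036 to -0.035. It was also highest for 8 of 9 erythroid and 6 of 7 neutrophil markers. Pcna and Tyms have copies named as pseudogenes, so shared reads make their values uncertain.

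The licensing genes set where replication may start, and none passed. Cdt1, which loads the MCM ring, had 13.7 ± 0.327 FPKM in IL-15C against 14.8 ± 0.658 (SD, n = 3), lower without overlap (log2 change -0.10 ± 0.05; limma adjusted p = 0.185). Gmnn, which encodes the CDT1 inhibitor geminin, had 4.45 ± 0.108 FPKM against 4.75 ± 0.471. The Cdt1 to Gmnn ratio of FPKM was 3.09 ± 0.0176 in IL-15C and 3.14 ± 0.177 in IL-2C, and overlapped. Cdc6, the other loader, and Chek1, the kinase of the replication checkpoint, averaged 0.157 and 0.215 FPKM. The ratio of mean FPKM for Cdc6 was 1.12, and 0.963 without IL-15C replicate 1.

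Of the 8 tested mitosis genes 1 rose, 1 fell and 6 did not pass. Top2a, the topoisomerase that untangles sister chromosomes, rose. It lies on chromosome 11 at 98992947 to 99024189 and had 6.15, 5.96 and 5.85 FPKM in IL-15C against 4.45, 4.33 and 4.84 FPKM in IL-2C, without overlap. The means were 5.99 ± 0.147 and 4.54 ± 0.267 FPKM (SD, n = 3), a ratio of 1.32, and the log2 change was 0.34 ± 0.05 (limma adjusted p = 0.0158; called in 4 of 6 fits with a library left out). Mki67, whose product Ki-67 coats mitotic chromosomes and is the usual stain for dividing cells, had 3.55, 3.63 and 3.24 FPKM against 2.57, 2.61 and 3.38. IL-2C replicate 3 exceeded IL-15C replicate 3, so the groups overlapped, and the log2 change of 0.22 ± 0.08 did not pass (limma adjusted p = 0.137). Ccna2, cyclin A2 of S phase and mitosis, had 1.33, 1.26 and 1.06 FPKM against 0.978, 0.915 and 0.980, higher without overlap, with a log2 change of 0.18 ± 0.08 (limma adjusted p = 0.172). Ccna2 shares 510 exon bases with Exosc9 on the opposite strand, and Top2a 122 with the snoRNA gene Gm23451.

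Cenpa and Hmgb2, the most abundant mitosis members, were lower in each IL-15C library, and Cenpa passed the test. Cenpa, the histone H3 variant that marks centromeres, is on chromosome 5 at 30666886 to 30674837. It had 11.8, 12.6 and 11.8 FPKM in IL-15C against 14.9, 13.8 and 13.5 FPKM in IL-2C, without overlap. Its log2 change was -0.20 ± 0.05 (limma adjusted p = 0.0474). The call was lost in each of the 6 fits that left out a library. Without IL-15C replicate 1 the log2 change was -0.19 (limma adjusted p = 0.0652). The call was also lost after median scaling, after quantile normalization and without the intensity trend. Hmgb2 had 88.6, 91.5 and 90.7 FPKM against 107, 95.6 and 98.2, lower without overlap (log2 change -0.15 ± 0.05; limma adjusted p = 0.103). Foxm1, the transcription factor that drives mitosis genes, had 1.97, 1.86 and 2.09 FPKM against 2.11, 1.98 and 2.04, with overlapping groups and a log2 change of -0.04 ± 0.06. The Top2a level within a library was 52.2, 47.3 and 49.6% of the Cenpa level in IL-15C against 29.9, 31.5 and 35.9% in IL-2C. Since Top2a was wholly higher and Cenpa wholly lower, this ratio had to separate and is no further evidence. Of the other tested mitosis members, the spindle motor gene Kif11 had 1.28 ± 0.125 FPKM against 1.08 ± 0.144 and Cdc20, an activator of the anaphase-promoting complex, 1.13 ± 0.0821 against 1.29 ± 0.177, both overlapping.

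The 15 mitosis genes below 1 FPKM were mostly higher in IL-15C, by small amounts. The ratio of mean FPKM exceeded 1 for 11 of them, with a median of 1.17, where it exceeded 1 for 47.6% of 2152 low genes with at least 10 implied fragments on average, a limit chosen after the data were seen, with a median of 0.981. Without IL-15C replicate 1 the medians were 1.17 and 0.963. Their summed level was 8.92, 8.29 and 7.81 FPKM in IL-15C against 7.17, 7.39 and 6.99 FPKM in IL-2C, so each IL-15C library lay above each IL-2C library. IL-15C replicate 1, with its erythroid and neutrophil markers, had the highest sum, and the other 2 IL-15C libraries still lay above the IL-2C range. This sum includes Ube2c, Aurkb and Birc5, each wholly higher in IL-15C. Its separation is therefore no evidence about the rest of these low genes. The sum of the 8 tested mitosis genes was instead lower in each IL-15C library. It was 116, 119 and 117 FPKM in IL-15C against 135, 121 and 125 FPKM in IL-2C, with Hmgb2 the largest part.

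Of these 15 low genes, 3 were higher in IL-15C without overlap and 0 lower, where 9.76% of low genes were wholly higher and 10.5% wholly lower. They are named here because of their values. Ube2c, the ubiquitin-conjugating enzyme of the anaphase-promoting complex, had 0.841, 0.577 and 0.433 FPKM in IL-15C against 0.323, 0.271 and 0.191 in IL-2C, from 29, 21 and 16 against 11, 11 and 8 implied fragments. The ratio of its means was 2.36, and 1.93 without IL-15C replicate 1. Aurkb, the kinase of the chromosomal passenger complex, had 1.09, 1.00 and 1.05 FPKM against 0.811, 0.679 and 0.713, a ratio of 1.43. Birc5, which encodes survivin of the same complex, had 0.724, 0.693 and 0.771 FPKM against 0.613, 0.535 and 0.650. Each had an exact two-sided permutation p of 0.1, the smallest possible here, and in limma without a filter the adjusted p was 0.125 for Ube2c, 0.0695 for Aurkb and 0.18 for Birc5. Ube2c shares 592 exon bases with Tnnc2 on the opposite strand, a gene at 0.0836 FPKM in IL-15C against 0.0551 in IL-2C.

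The genes of the cyclin B and CDK1 pair that starts mitosis overlapped between the groups. Cdk1 had 0.915, 0.927 and 0.796 FPKM in IL-15C against 0.857, 0.927 and 0.925 in IL-2C (exact permutation p = 0.7). Ccnb1 had 0.984, 1.08 and 0.798 FPKM against 0.771, 0.808 and 0.878 (exact permutation p = 0.3). Ccnb1, Ccnb2 and Ccnd3 have copies named as pseudogenes, and Kif20a shares 1271 exon bases with Cdc23, so their values are uncertain. The kinases Plk1 and Aurka had ratios of mean FPKM of 0.923 and 0.964, and the checkpoint kinase gene Bub1b 0.969. The remaining low mitosis members, with overlapping groups, had ratios from 1.06 for the spindle assembly gene Tpx2 to 1.72 for the kinetochore gene Cenpf, the latter at 0.0423 to 0.0692 FPKM against 0.0225 to 0.0479. The Tpx2 ratio was 0.962 without IL-15C replicate 1.

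**Figure D5:**
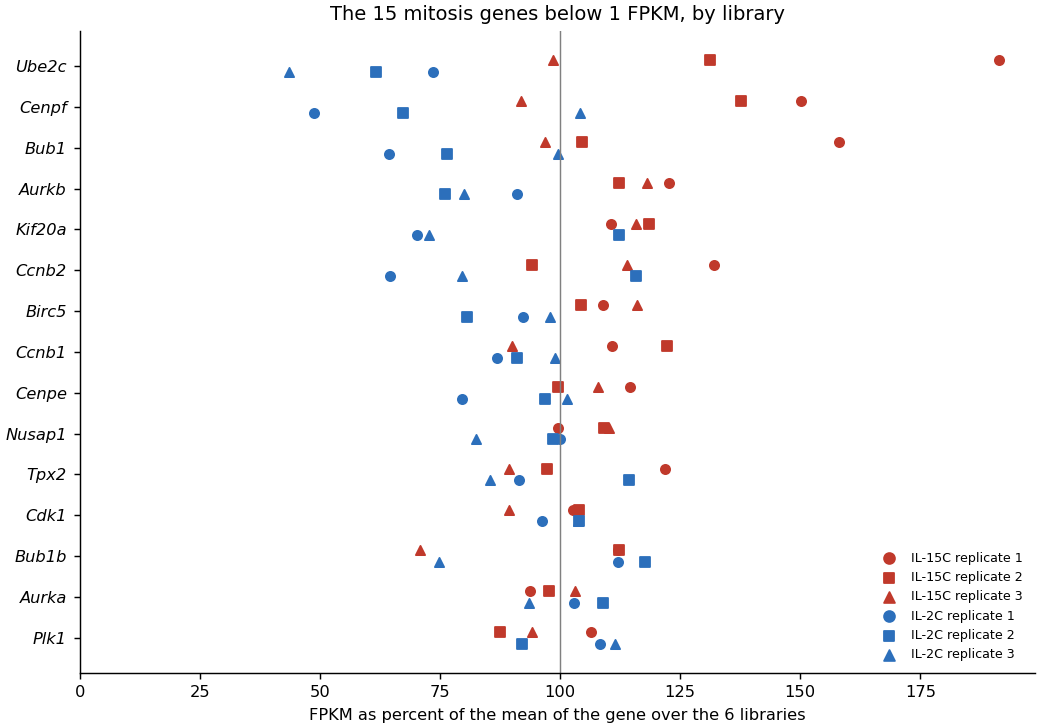
FPKM of the 15 mitosis genes below 1 FPKM in each library, as a percent of the mean of the gene over the 6 libraries (horizontal axis); red markers are IL-15C and blue IL-2C, with a marker shape for each replicate. Ube2c, Aurkb and Birc5 are separated between the groups, and IL-15C replicate 1 lies farthest right for 7 of the 15 genes.

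Other genes of the same machinery gave few calls. Of 23 tested genes of G1/S control outside the members, 0 rose and 1 fell in limma, with a median log2 change of -0.05. This was Lin52, a subunit of the MuvB complex, with 5.96 ± 0.253 FPKM in IL-15C against 7.08 ± 0.0735 (log2 change -0.22 ± 0.05; adjusted p = 0.0351). Of 37 tested replication genes 0 rose and 0 fell. An unadjusted limma p under 0.05 was found for 8 of them, beside 2643 of all 9831 tested genes. The smallest adjusted p belonged to Gins4, of the GINS complex at the fork, with 13.4 ± 0.472 FPKM against 15.6 ± 1.01 (adjusted p = 0.0524), and Lig1, the ligase that joins Okazaki fragments, with 3.12 ± 0.436 against 4.29 ± 0.594 (adjusted p = 0.0571). Their median log2 change was -0.08.

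Of 20 tested mitosis genes outside the members 0 rose and 0 fell in limma, with a median log2 change of -0.06. The unadjusted limma p was under 0.05 for 7 of them, beside 2643 of all 9831 tested genes. Prc1, which bundles the central spindle, had 3.80 ± 0.134 FPKM in IL-15C against 3.16 ± 0.132 (limma adjusted p = 0.0563), and Knstrn, a spindle and kinetochore protein gene, 1.25 ± 0.0356 against 1.58 ± 0.0784 (limma adjusted p = 0.0978). A further 27 genes of that list averaged below 1 FPKM, and 21 of them had a ratio of mean FPKM above 1. The median ratio of these low genes was 1.22, and 1.10 without IL-15C replicate 1. Among the 2152 low genes with at least 10 implied fragments the ratio exceeded 1 for 47.6%. Their median was 0.981, or 0.963 without that library. The fragment limit was not applied to these 27 genes, so the 2 sets are not fully alike.

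Genes that restrain division were also listed. Of 14 tested quiescence and antiproliferative genes 0 rose and 1 fell, and the median log2 change was -0.19, below the -0.040 of all tested genes. The gene that fell was Ypel3, a growth-suppressing gene, with 95.6, 114 and 115 FPKM in IL-15C against 154, 140 and 142 in IL-2C (log2 change -0.43 ± 0.07; limma adjusted p = 0.0192). Cdkn1b belongs to this list as well. Of 19 tested p53 target genes 0 rose and 1 fell, with a median log2 change of -0.08. Bbc3, which encodes the death inducer PUMA, had 13.0 ± 0.551 FPKM against 15.7 ± 0.448 (log2 change -0.26 ± 0.05; limma adjusted p = 0.02). Calls in each list stood beside 6.44% of all tested genes.

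The authors' deposited table of FPKM per group, scaled apart from the single libraries, gave Ccne1 6.05 FPKM for IL-15C and 4.12 for IL-2C, Cdk6 3.73 and 2.38, Tk1 3.63 and 2.70, and Top2a 8.13 and 5.98. The same authors' deposited table gave Mcm7 14.4 and 17.1 FPKM and Cenpa 16.4 and 18.4. These values come from the same 6 libraries and are no separate evidence of direction.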

How the data were processed

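The submitters' processing notes name mm10, Cufflinks 2.2.1 and TopHat2 2.0.13, and no gene annotation. The authors deposited FPKM values with interval bounds, 1 table per library with 24885 rows, and a table of group FPKM values, per the file headers. Count models were not used, since these are not counts. For 280 genes with several rows the values were added up, and 10 genes with a failed estimate were left out, Gins2 among the listed genes. Reading each interval as 2 SD of a Poisson count gave implied fragments; they cover counting error only and are too low where reads were shared between isoforms.

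Limma 3.58.1 (R 4.3.3) with an intensity trend was run, two-sided, on log2(FPKM + 1) for the 9831 genes with a mean of at least 1 FPKM; p-values were adjusted by Benjamini-Hochberg over them. Fold changes on this scale understate those of low genes. The fit was tested on simulated data. It called 43.7% of the genes given a log2 change of 0.25 there and 86.3% of those given 0.5. A member that did not pass can therefore still differ by 0.25 or more on the log2(FPKM + 1) scale. The simulated noise was independent between genes, which was not shown for the real libraries. Changes are IL-15C minus IL-2C. Positions are those of the deposited files with 1 added to the start, which then equals the RefSeq start for 29 of the 50 members, against 1 without it. Named in full are called members, in each class the 4 with the largest log2 change and the 3 with the highest level, and a set of central genes; of other lists up to 5 called genes or, with 0 called, the 2 with the smallest p. Members and lists were chosen with earlier results of these data known. Tables and plots used matplotlib 3.10.9, scipy 1.17.1, pandas 2.3.3 and numpy 2.4.6 under Python 3.11.15. Alternatives were pseudocounts of 0.1 and 5, no filter or a mean of at least 5 FPKM, 3 scalings, no trend, a replicate block and leaving out each library.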

Additional observations from a re-analysis of the deposited data

How the results depend on the processing

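Members called numbered 4 higher and 2 lower. The number higher was 1 with a mean of at least 5 FPKM, 0 without a filter, 2 with a replicate block and 0 to 4 with a library left out. The number lower was 3 with a mean of at least 5 FPKM, where Cdkn1b passed, 1 after median scaling, quantile normalization or without the trend, 0 without a filter, and 0 to 2 with a library left out. Of all tested genes 169 were higher and 464 lower. After median scaling the counts were 325 and 207, after quantile normalization 308 and 272, and without a filter 6 and 9; with a library left out they ran from 14 to 176 and from 15 to 575. Of genes on the other lists 0 were higher and 3 lower. The number higher was 1 after median scaling, quantile normalization, without the trend or with the replicate block, and 0 to 1 with a library left out. The number lower was 5 with a mean of at least 5 FPKM, quantile normalization or the replicate block, 0 without a filter, and 0 to 7 with a library left out. The cause was not tested, except that fewer samples or members enter some fits.

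Same-numbered libraries did not deviate together (r = -0.029, -0.156 and -0.024 across genes), so the replicate block has no support as a pairing; under it Cdkn1b was called lower (adjusted p = 0.0473), and Cdk6, Tk1 and Cenpa were not called. Among the 31 tested members, the log2 changes that reversed with a library left out were those of Ccnd2 (-0.026 to 0.22), Cdk4 (-0.027 to 0.060), Pcna (-0.032 to 0.10) and Mcm2 (-0.035 to 0.086), the lowest of each without IL-15C replicate 1, and Rrm1 (-0.11 to 0.0097), the highest without IL-15C replicate 2; Mcm2 also reversed without IL-2C replicate 3. Mcm6 was 0.0024 after median scaling and Foxm1 0.0050 after quantile normalization. None of these was called. Depth limits the genes below 1 FPKM, where a library held as few as 8 implied fragments for Ube2c and Bub1.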

Other observations

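Tspan31, a tetraspanin gene that shares 641 exon bases with Cdk4 on the opposite strand, averaged 1.33 FPKM in IL-15C and 0.703 FPKM in IL-2C, a log2 change of 0.45 ± 0.08 (limma adjusted p = 0.0216), while Cdk4 itself had 0.02 ± 0.05. It was chosen after its values were seen, and without strand the reads of the pair cannot be told apart.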
